A study of Mus musculus with 12 samples.

Results

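In the triceps brachii muscle of mice, 9 genes of NAD metabolism were followed: the salvage enzymes Nampt, Itgb1bp3, Nmnat1 and Nmnat3, the transhydrogenase Nnt, and the sirtuins Sirt1, Sirt2, Sirt3 and Sirt5. They were taken by gene symbol from a table of 10187 genes, and all 9 symbols had a row. RNA was sequenced from 12 male C57/BL6 mice in 4 groups of 3, which crossed myostatin genotype with physical activity. Loss of myostatin was induced in the adult. A floxed exon 3 of Mstn was removed by a Cre recombinase that tamoxifen switches on, and wild-type mice received the same drug in their food (0.025%, 6 weeks, from the age of 4 months). Inactive wild-type mice (IW) and inactive myostatin-reduced mice (IM) had no wheel. Active wild-type mice (AW) and active myostatin-reduced mice (AM) were moved at 6 months of age to single cages with a running wheel for 12 weeks. The promoter that drives Cre was not given in the sources used here, and single housing went with the wheel, so activity and housing cannot be told apart. The list was chosen by gene symbol and function with the measured activity changes within each genotype in view. Those changes are therefore given as a description, their calls in the fit are only counted, and the genotype comparison alone is read as a test of the members.

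NAD carries electrons between the enzymes of fuel oxidation and is also cleaved by sirtuins, which remove acyl groups from proteins and release nicotinamide. Muscle rebuilds most of its NAD from nicotinamide through nicotinamide phosphoribosyltransferase (Nampt), the rate-limiting enzyme of this salvage route, and a second route starts from nicotinamide riboside and its kinases. Both make nicotinamide mononucleotide, which the adenylyl transferases Nmnat1 of the nucleus and Nmnat3 of mitochondria turn into NAD. Itgb1bp3, now named Nmrk2, is the nicotinamide riboside kinase of muscle. Nnt, the transhydrogenase of the inner mitochondrial membrane, uses the proton gradient to pass electrons from NADH to NADP.

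The deposited values are normalized read counts, scaled by the authors to an equal trimmed mean in all samples. Summed values were 927958 to 1080139 per mouse. From the spacing of the low values, taken as the scaled worth of a single read, the depth was estimated at 9023583 to 12184102 reads per mouse. By the same estimate, which is approximate, the members rested on about 63 reads (the lowest for Sirt5) to 4202 reads (the highest for Itgb1bp3), and counting alone would give a coefficient of variation of 9.71% for Sirt5 and 1.85% for Itgb1bp3. These figures cover counting error only, since amplified copies are not independent molecules. The labels of the groups were checked on Mstn (chromosome 1, 53118507 to 53124923, mm9), which had values of 79.7 to 138 in wild-type mice and 8.70 to 21.6 in myostatin-reduced mice. All 10 defining genes of skeletal muscle were in the table and none had a zero. Their levels were not steady: 2 were called higher and 1 lower with activity over both genotypes (limma, adjusted p under 0.05), against 7.99% and 6.51% of genes. Their sum was 191668 to 219235 in IW, 168496 to 194234 in AW, 233367 to 239802 in IM and 176232 to 212957 in AM mice. The slow-fibre score below does not include these genes, and their part in the changes of the members was not tested.

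Muscles of the same group differed in the RNA of slow-fibre genes, and this moved with some of the members. A slow-fibre score, the mean log2 deviation of 11 slow-fibre genes from their means over all mice, was 1.96, -1.96 and 0.09 in IW mice 1, 2 and 3. AW mice scored -1.02, 2.33 and 2.49, IM mice -2.23, -1.39 and -1.79, and AM mice 1.09, 2.06 and -1.63. AW mouse 1 and AM mouse 3 were thus the active mice poor in slow-fibre genes, and IW mouse 1 was the inactive mouse rich in them.

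The members differed widely in level. Per kb of the longest coding transcript (GENCODE, mm9), Itgb1bp3 had 145 ± 38.0 normalized reads over the 12 mice (SD), Sirt2 56.6 ± 4.13 and Nampt 48.5 ± 2.75. Sirt3 followed with 14.7 ± 3.31, Nmnat3 with 9.77 ± 0.894, Nnt with 8.78 ± 4.41, Sirt5 with 6.58 ± 1.496, Nmnat1 with 5.58 ± 0.572 and Sirt1 with 2.73 ± 0.335. Every mouse had more Itgb1bp3 than any mouse had Sirt2, whereas the ranges of Sirt2 and Nampt overlapped. Nampt stood above Sirt3 without overlap, and from Sirt3 down to Nmnat1 the ranges of each pair of neighbours overlapped. Sirt1 was below Nmnat1 in every mouse and had the lowest level of the list. Among 10033 genes with a length, the percentile of the mean level was 97.1 for Itgb1bp3, 90.5 for Nampt and 24.0 for Sirt1.

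**Figure D1:**
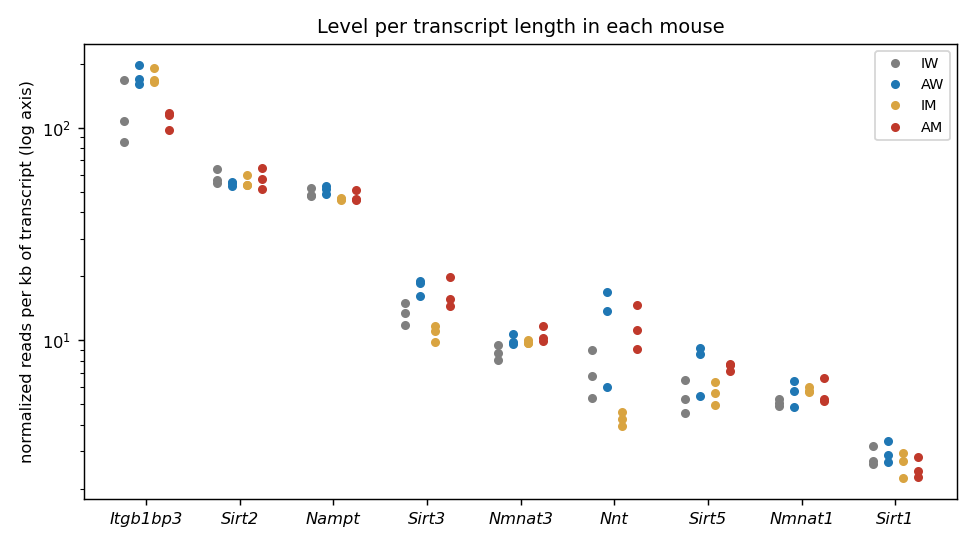
Normalized reads per kb of transcript (log axis) of each of the 9 genes, in order of their mean, with a point for each of the 12 mice coloured by group. Itgb1bp3 lies between 85.3 and 198, above all other members in every mouse, and Sirt1 lies lowest, between 2.24 and 3.35.

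The sequence before the start of transcription was read for the members from RefSeq (250 bases, table of build GRCm38.p6), and 8 of the 9 genes matched. Nnt had no entry there, so its window was not searched. Each window was then found once, as an exact match, in the mm9 genome, which gives the positions below. Windows are shown for Sirt3 and Sirt5, mitochondrial sirtuins with higher means in active mice of both genotypes, and for Itgb1bp3, whose activity difference had opposite signs in the genotypes. Capitals mark a match, on either strand, to AAGGTCA (the half-site of estrogen-related receptors), CACGTG (the E-box of clock factors), GCGCA and GCGC with 1 base between (the core of the NRF1 site) or CCGGAAG (the core of ETS factor sites).
Sirt3, chr7:148068209-148068458, minus strand: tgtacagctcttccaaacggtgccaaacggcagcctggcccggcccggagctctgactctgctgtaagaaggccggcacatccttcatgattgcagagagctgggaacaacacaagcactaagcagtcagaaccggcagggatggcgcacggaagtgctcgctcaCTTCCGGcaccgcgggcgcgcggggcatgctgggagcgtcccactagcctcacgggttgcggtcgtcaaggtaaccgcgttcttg
Sirt5, chr13:43460654-43460903, plus strand: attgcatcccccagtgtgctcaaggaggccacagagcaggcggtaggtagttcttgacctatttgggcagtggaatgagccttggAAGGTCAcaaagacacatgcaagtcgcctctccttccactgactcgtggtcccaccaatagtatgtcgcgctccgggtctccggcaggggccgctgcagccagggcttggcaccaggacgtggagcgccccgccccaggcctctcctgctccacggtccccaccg
Itgb1bp3, chr10:80664783-80665032, minus strand: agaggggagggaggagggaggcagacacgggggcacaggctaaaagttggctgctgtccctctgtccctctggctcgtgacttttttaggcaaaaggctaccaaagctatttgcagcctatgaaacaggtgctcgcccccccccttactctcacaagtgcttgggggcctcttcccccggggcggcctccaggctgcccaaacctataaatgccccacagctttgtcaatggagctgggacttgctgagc
The Sirt3 window held an ETS core that began at -85 from the start site, and the Sirt5 window held a receptor half-site that began at -165. The Itgb1bp3 window held none of these letters. In the same search Sirt1 had E-boxes at -115 and -43, Nampt had an NRF1 core at -49 and Nmnat1 had 1 ETS core, which lies in the overlapping windows of both of its annotated starts. The windows of Nmnat3 and Sirt2 and the second start of Sirt3 had no match, and no matches to different motifs overlapped. In the Sirt3 window the match lies on the other strand, as CTTCCGG. Of 32851 mouse windows of the same length, 4.08% held the receptor half-site, 6.02% the E-box, 3.74% the NRF1 core and 6.91% the ETS core. A match is a description of the letters and was not tied to binding here.

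How expression went with wheel running in each genotype was the question of the activity comparisons. Nnt, Sirt3 and Sirt5, 3 genes of mitochondrial proteins, had means 1.33-fold to 2.73-fold higher in active mice of both genotypes. Itgb1bp3 was 1.46-fold higher in active than inactive wild-type mice and was 36.7% lower in active than inactive myostatin-reduced mice. In Nampt, Nmnat1, Nmnat3, Sirt1 and Sirt2 the group means differed with activity by at most 14.3% in either genotype. AW and IW mice did not overlap in 2 of the 9 genes, both higher in AW mice, where 16.2% of all 10187 genes did not and 9.09% were higher. AM and IM mice did not overlap in 4 of the 9, 3 of them higher and 1 lower, where the shares were 27.2%, 14.5% higher and 12.7% lower. Because the list was made with the activity contrasts in view, nothing is read from these counts or from the calls that follow. In the limma fit across 7247 genes with a mean of at least 10, which leaves out Sirt5, 0 of 8 members were called (adjusted p under 0.05) in wild-type mice, where 0.0276% of genes were, with 1067 genes (14.7%) at an unadjusted p under 0.05. In myostatin-reduced mice 3 of 8 were called, Nnt and Sirt3 higher and Itgb1bp3 lower, where 7.84% of genes were (5.31% higher and 2.53% lower). Without IM mouse 2, IM mouse 3 or AM mouse 2 the count was 0, in fits that called 142, 118 and 85 of the 7247 genes. Without IM mouse 1 it was 1 (Sirt3), and Itgb1bp3 alone lost its call without IW mouse 2, AW mouse 2, AW mouse 3 or AM mouse 3. Itgb1bp3 also lost it with no filter, median-of-ratios scaling, the replicate number as a block or the slow-fibre score as a covariate, and Sirt3 lost its call with the score. Over both genotypes 2 of 8 were called (Nnt and Sirt3), where 14.5% of genes were. No gene was called for the interaction (0% in limma, with 297 genes or 4.1% at an unadjusted p under 0.05).

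**Figure D2:**
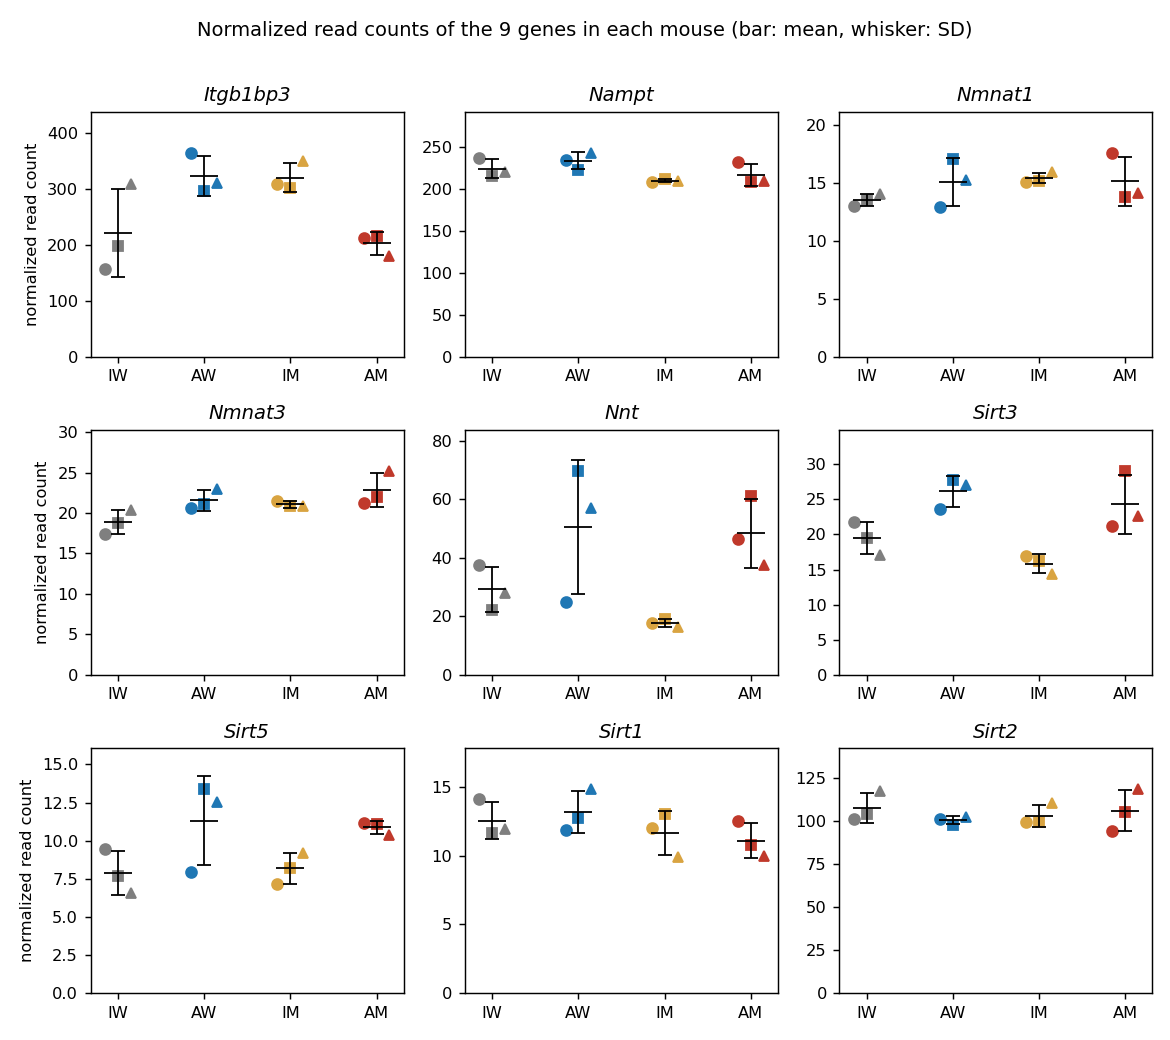
Normalized read count of each of the 9 genes in the 12 mice, with replicates 1, 2 and 3 as circle, square and triangle, the group mean as a bar and the SD as whiskers (n = 3). Nnt and Sirt3 are higher in every AM mouse than in every IM mouse, Itgb1bp3 is lower in every AM mouse, and Nampt stays between 208 and 242.

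Nampt was the most even member. It lies on chromosome 12 from 33505200 to 33538234 (plus strand). IW mice had normalized read counts of 236, 216 and 220.02, AW mice 235, 222 and 242, IM mice 208, 211 and 209, and AM mice 231, 208 and 209. The highest value was 1.16 times the lowest, and active and inactive mice overlapped in both genotypes. The activity change was 0.06 in wild-type mice (SE 0.06) and 0.04 in myostatin-reduced mice (SE 0.06), on the scale of log2(value + 1) used for all changes here, and the latter was -0.006 without AM mouse 1.

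Itgb1bp3 (chromosome 10, 80660915 to 80664782, minus strand) behaved otherwise. IW mice had 157, 198 and 309, and AW mice 364, 296 and 309.9. In wild-type muscle the groups overlapped, because IW mouse 3 was above AW mouse 2. IM mice had 309, 300.35 and 349 against 211, 216 and 179 for AM mice, so that every active myostatin-reduced mouse was below every inactive one. The activity change was 0.60 (SE 0.19) in wild-type mice and -0.66 (SE 0.19) in myostatin-reduced mice, a difference of -1.26 (SE 0.26). The wild-type change was 0.38 without IW mouse 1 and 0.87 without IW mouse 3, and the myostatin-reduced change was -0.71 to -0.57 when any mouse was left out. With the slow-fibre score as a covariate the changes were 0.63 and -0.59. Schwann cell markers, of which all 5 were in the table without a zero, summed to 40.6 to 83.2 in IW, 24.0 to 46.5 in AW, 31.4 to 55.8 in IM and 43.8 to 83.4 in AM mice. The median activity change of the 3 tested was -0.47 in wild-type and 0.74 in myostatin-reduced mice with 0 called in limma and 1 in each genotype at an unadjusted p under 0.05. For the interaction all 3 had an unadjusted p under 0.05 and 0 were called. Their part in the values of Itgb1bp3 was not tested.

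Per kb of the longest coding transcript, the riboside kinase message outnumbered the Nampt message in every mouse, and the ratio carried the same pattern. This order depends on the lengths taken. Before division by length, Itgb1bp3 was below Nampt in IW mice 1 and 2 and in AM mice 1 and 3. The ratio of Itgb1bp3 to Nampt within a mouse was 1.64 to 3.47 in IW mice and 3.16 to 3.83 in AW mice. It was 3.52 to 4.13 in IM mice and 2.12 to 2.56 in AM mice, again without overlap in myostatin-reduced muscle. These ratios compare transcripts and say nothing of enzyme activity.

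The adenylyl transferases, which complete both routes, differed little with activity. Nmnat3 (chromosome 9, 98187854 to 98320946, plus strand) stood at 17.4, 18.8 and 20.35 for IW, 20.6, 21.1 and 23.0 for AW, 21.5, 20.8 and 20.85 for IM and 21.25, 21.95 and 25.2 for AM mice. Every AW mouse was above every IW mouse, by a mean of 14.3%, and the myostatin-reduced groups overlapped. Nmnat1 (chromosome 4, 148841681 to 148859311, minus strand) ranged from 12.9 to 17.6 over all mice, with overlap of active and inactive mice in both genotypes. Per kb, Nmnat3 was 1.49 to 2.20 times Nmnat1 in a mouse.

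Nnt varied most of all members. It lies on chromosome 13 from 120124255 to 120197804 (minus strand). IW mice had 37.5, 22.2 and 28.1 and AW mice 24.9, 69.6 and 57.0, and the groups overlapped because AW mouse 1 was low. IM mice had 17.7, 19.01 and 16.4, and AM mice 46.4, 61.0 and 37.7, which lay wholly above. The highest value over all mice was 4.23 times the lowest. The mean was 1.73-fold higher in active wild-type mice (log2 change 0.68, SE 0.31) and 2.73-fold higher in active myostatin-reduced mice (1.37, SE 0.31). Without AW mouse 1 the wild-type change was 1.11, and without AW mouse 2 it was 0.39. The C57BL/6J substrain is known to carry a deletion within Nnt, the labels do not give the substrain, and a value per gene cannot show which exons were read.

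Among the inactive wild-type mice and among the active mice of each genotype, the mouse with the lowest slow-fibre score also had the lowest Nnt (IW mouse 2, AW mouse 1 and AM mouse 3), while among IM mice it did not. With the score as a covariate the activity change of Nnt was 0.38 (SE 0.15) in wild-type and 0.81 (SE 0.17) in myostatin-reduced mice. In bulk muscle, fewer cells or fibres of a type and less RNA per cell cannot be told apart. Endothelial genes also moved with activity: 6 of 8 markers were called higher over both genotypes, against 7.99% of genes. In myostatin-reduced mice 5 of the 8 were called higher, against 5.31% of genes. In wild-type mice 0 of the 8 were called, against 0.0276% of genes, and 0 had an unadjusted p under 0.05 in limma. The sum of the endothelial markers was 303 to 391.7 in IW, 303 to 519 in AW, 274 to 289 in IM and 359 to 588 in AM mice. Their part in the changes of the members was not tested.

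**Figure D3:**
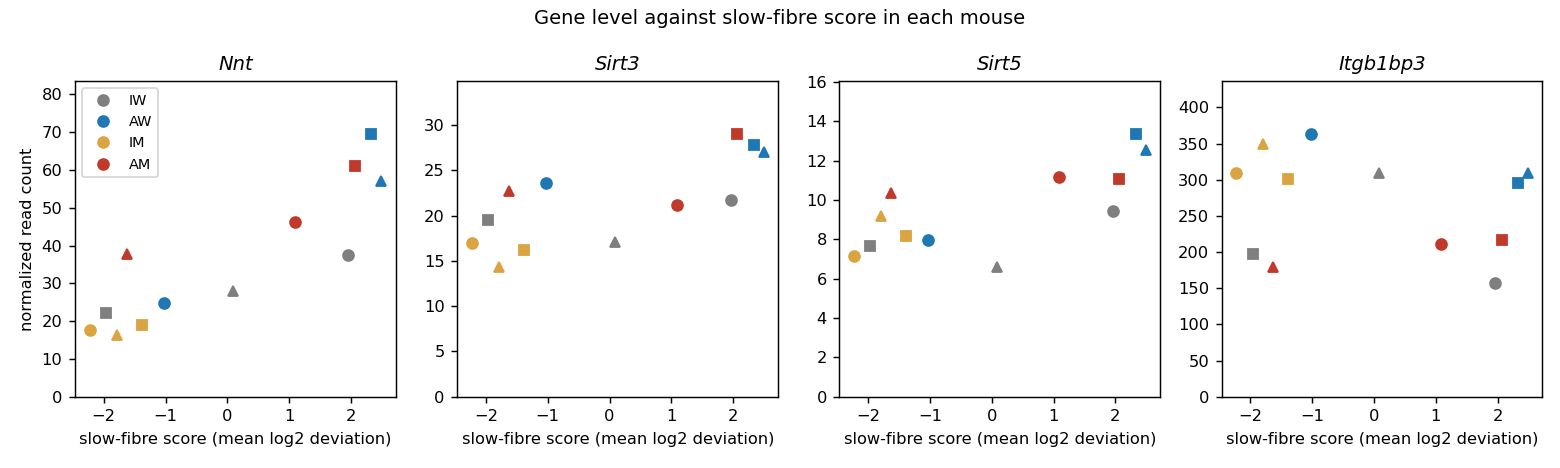
Normalized read counts of Nnt, Sirt3, Sirt5 and Itgb1bp3 against the slow-fibre score (mean log2 deviation of 11 slow-fibre genes), a point for each mouse with colours for groups and symbols for replicates 1, 2 and 3. Nnt is highest, at 57.0 to 69.6, in the 3 mice with scores above 2, and Itgb1bp3 runs from 179 to 364 among mice with scores below -1.

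Sirt3 and Sirt5 are sirtuins of the mitochondrial matrix. Sirt3, the main deacetylase there, lies on chromosome 7 from 148049569 to 148068208 (minus strand). IW mice had 21.75, 19.6 and 17.1 and AW mice 23.6, 27.8 and 27.1. Myostatin-reduced mice had 17.0, 16.2 and 14.3 without and 21.2, 29.0 and 22.7 with a wheel. Every active mouse was above every inactive mouse of its genotype, which was so in 3.98% of all genes. The change was 0.41 in wild-type (SE 0.12) and 0.58 in myostatin-reduced mice (SE 0.12), or 0.35 and 0.46 with the slow-fibre score as a covariate. Leaving out any mouse kept the changes between 0.33 and 0.49 and between 0.45 and 0.67.

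Sirt5, which removes succinyl and malonyl groups, lies on chromosome 13 from 43460882 to 43490571 (plus strand). Its mean of 9.56 fell below the filter, so its changes come from a fit of all 10187 genes. It stood at 9.43, 7.65 and 6.58 for IW, 7.96, 13.4 and 12.5 for AW, 7.17, 8.18 and 9.19 for IM and 11.2, 11.1 and 10.4 for AM mice. As with Nnt, AW mouse 1 was among the inactive wild-type values, while the AM mice lay wholly above the IM mice. The changes were 0.45 (SE 0.17) and 0.38 (SE 0.17), and with the slow-fibre score they were 0.33 (SE 0.15) and 0.15 (SE 0.16).

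Sirt1 and Sirt2 act mainly in the nucleus and the cytosol, and neither separated active from inactive mice. Sirt1 (chromosome 10, 62781753 to 62844452, minus strand) had values from 9.92 to 14.8 over all mice, and its changes were 0.06 in wild-type and -0.06 in myostatin-reduced mice (SE 0.13 for each). Sirt2 (chromosome 7, 29551754 to 29573684, plus strand) had values from 94.3 to 119, with changes of -0.09 and 0.04 (SE 0.09 for each). Some of these small changes turned in sign when 1 mouse was left out, for Sirt1 to -0.02 in wild-type mice (without AW mouse 3) and 0.02 in myostatin-reduced mice (without IM mouse 2), and for Sirt2 to -0.05 in myostatin-reduced mice (without AM mouse 3). Per kb, the ratio of Sirt3 to Sirt2 within a mouse was 0.184 to 0.272 in IW, 0.294 to 0.359 in AW, 0.164 to 0.215 in IM and 0.241 to 0.347 in AM mice.

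**Figure D4:**
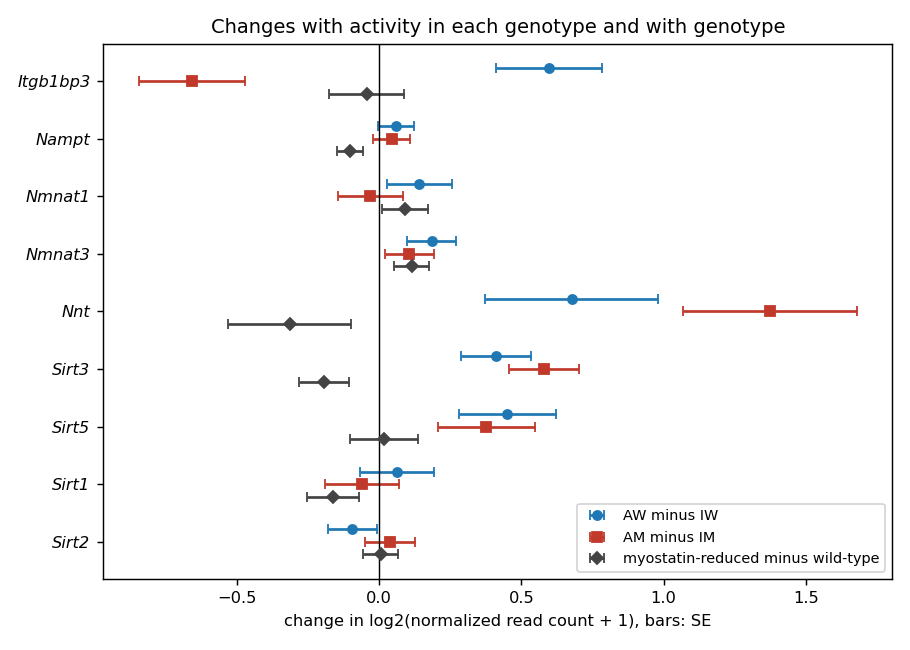
Change in log2(normalized read count + 1) of each gene with activity in wild-type mice (blue circles) and in myostatin-reduced mice (red squares) and with genotype over both activity levels (black diamonds), with SE bars from the limma fit. The activity changes of Itgb1bp3 have opposite signs (0.60 and -0.66), while those of Nnt, Sirt3 and Sirt5 lie between 0.38 and 1.37.

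The genotype effect, averaged over activity levels, is separate from the activity contrasts in view when the list was made and was tested. The members and tests were still chosen with earlier results of these data known. None of the 8 members tested was called (0 of 8 in limma at an adjusted p under 0.05, against 5.78% of genes, 3.57% higher and 2.21% lower), and 2 had an unadjusted p under 0.05, against 22.5% of genes. These were Nampt, with a change of -0.10 (95% interval -0.20 to -0.004, adjusted p = 0.206 in limma), and Sirt3, with -0.20 (95% interval -0.39 to -0.01, adjusted p = 0.211). Both were lower in every IM mouse than in every IW mouse, and both overlapped between AM and AW mice. Nnt had the widest interval, -0.78 to 0.15 around -0.32 (adjusted p = 0.42), and became called without AW mouse 1 (-0.53, limma adjusted p = 0.0403), while without AW mouse 2 its change was -0.17. With the slow-fibre score as a covariate, whose genes themselves had lower means in myostatin-reduced mice, its change was -0.002 (SE 0.11). For Itgb1bp3 the change was -0.04 (95% interval -0.33 to 0.24, adjusted p = 0.882), since IM mice were above IW mice in the mean (319.55 against 221) and AM mice below AW mice (202 against 323). Sirt2 had an interval of -0.13 to 0.14 and Sirt1 one of -0.36 to 0.03, with adjusted p-values of 0.97 and 0.318. The adjusted p was 0.55 for Nmnat1 and 0.296 for Nmnat3, with intervals of -0.08 to 0.27 and -0.02 to 0.25.

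Overlap between the genotypes was also described within each activity level. Without wheels, 5 of the 9 members did not overlap between IM and IW mice, against 23.6% of all genes. Nampt, Nnt and Sirt3 were lower in IM mice (11.8% of all genes) and Nmnat1 and Nmnat3 higher (11.7%). With wheels, 1 of the 9 did not overlap, against 14.2% of all genes, and this was Itgb1bp3, lower in AM mice as were 7.16% of genes. The share over all genes was also larger without wheels. These groups are the same mice as in the activity comparisons that were in view when the list was made. The difference between the counts was not tested, and nothing is read from it.

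Of 24 other NAD synthesis genes listed, 8 were in the table and 3 passed the filter: Mcart1, now named Slc25a51, the mitochondrial NAD carrier, 1110020G09Rik, now named Nadk2, the mitochondrial NAD kinase, and Nadk, the cytosolic NAD kinase. None was called in any of the 5 contrasts (0 of 3 in limma, and 0 at an unadjusted p under 0.05). The 8 genes together summed to 176 to 185 over all mice, most of it from these 3. The gene of the other riboside kinase, BC016495 (Nmrk1), had a mean of 4.16 against 267 for Itgb1bp3, and Naprt1, of the nicotinic acid route, one of 3.93. The remaining sirtuins Sirt4, Sirt7 and Sirt6 were below the filter, with means of 8.67, 4.35 and 3.50. In the unfiltered fit used for Sirt5, Sirt4 changed with activity by 0.21 in wild-type and 0.25 in myostatin-reduced mice (SE 0.16 for each). Sirt7 changed by 0.13 and 0.09 (SE 0.18 for each), and Sirt6 by 0.17 and 0.49 (SE 0.16 for each). Positive changes in both genotypes were thus not limited to Sirt3 and Sirt5, and a split of the sirtuins by cell compartment was not tested.

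Among enzymes that cleave NAD or clear nicotinamide, 21 were in the table and 15 were tested. Over both genotypes 1 was called higher and 2 lower in active mice, against 7.99% and 6.51% of genes. Nudt13, a mitochondrial NADH hydrolase, rose by 0.34 (limma adjusted p = 0.0209). Parp1, the main nuclear poly(ADP-ribose) polymerase, fell by 0.23 on the log2 scale (-0.225, limma adjusted p = 0.0212), and Aox1, an oxidase that acts on nicotinamide metabolites, changed by -0.26 (limma adjusted p = 0.025). With genotype 1 of the 15 was called, against 5.78% of genes, and it was lower: Art3, of the ADP-ribosyltransferase family, changed by -0.46 (SE 0.06, limma adjusted p = 0.00211). Its values were 153 to 164 in IW and 126 to 157 in AW mice against 107 to 114 in IM and 98.1 to 119 in AM mice, with no overlap between the genotypes. The median change of the 15 genes was -0.06 with activity and -0.04 with genotype, against -0.02 and -0.005 over all genes tested.

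The mitochondrial enzymes around Nnt and Sirt3 were also followed. Idh2, which makes NADPH in mitochondria and is a substrate of Sirt3, rose with activity over both genotypes by 1.198 (SE 0.26, limma adjusted p = 0.0113). It was the 1 gene called of 3 tested among 7 listed mitochondrial NADPH sources, against 14.5% of genes (7.99% higher). Its values were 262, 107 and 158 in IW, 154, 421 and 384 in AW, 96.9, 111 and 72.4 in IM and 260.2, 361 and 222 in AM mice, so that AW mouse 1 was again low. Per kb, the ratio of Nnt to Idh2 within a mouse stayed between 0.0601 and 0.0954 while Nnt itself spanned 4.23-fold and Idh2 5.82-fold. Of 22 tested substrates and partners of the sirtuins, 9 were called higher and 1 lower with activity, against 7.99% and 6.51% of genes, with a median change of 0.17. The slow-fibre genes summed to 94.3 to 1369.7 in IW, 151 to 1831 in AW, 78.3 to 112 in IM and 117 to 1343 in AM mice, and their part in these changes was not tested. Those called higher act in mitochondrial fuel oxidation, electron transport, ATP synthesis or the handling of superoxide (Acadl, Idh2, Hadh, Ndufa9, Atp5a1, Sdha, Suclg2 and Sod2) or make acetyl-CoA from acetate (Acss2). Acadl, the long-chain acyl-CoA dehydrogenase, changed by 0.79 (limma adjusted p = 0.00396), and the acetyltransferase Ep300 by -0.24 (limma adjusted p = 0.0272). With genotype 1 of these 22 was called, against 5.78% of genes, Foxo4 at -0.27 (limma adjusted p = 0.00604). Of 9 genes of mitochondrial peroxide and thiol repair, some of which draw on NADPH, 3 were called higher with activity, against 7.99% of genes. These were Prdx5 by 0.53, Txn2 by 0.35 and Prdx3 by 0.18 (limma adjusted p = 0.000845, 0.00225 and 0.0115). With genotype 3 of the 9 were called lower, against 2.21% of genes, Glrx2 at -0.25, Glrx5 at -0.21 and Gpx4 at -0.20 (limma adjusted p = 0.0342, 0.0434 and 0.0286).

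Likeness of pattern was described by Pearson's r of log2(value + 1) over the 12 mice with each of the other genes tested. The points share their groups and their slow-fibre RNA, so these are descriptions. Nnt was most like Adck3 (r = 0.985), Idh2 (0.984) and Aldh2 (0.983), with Spearman's rho of 0.951, 0.965 and 0.972. Sirt3 was most like Uqcrq (r = 0.974, rho = 0.951), a subunit gene of respiratory complex III, and Sirt5 most like Hibch (r = 0.913, rho = 0.93). The genes most like Itgb1bp3 reached only r = 0.802 for Grk6, 0.794 for Gtf2b and 0.767 for D19Ertd386e (rho of 0.657, 0.608 and 0.783). For Nampt they were Abhd5, Grpel1 and Ppp1cb (r = 0.924, 0.9 and 0.885, rho = 0.818, 0.797 and 0.895). Nmnat3 was most like Th1l (r = 0.946), Sirt1 most like Mycbp2 (0.933) and Sirt2 most like Trip10 (0.979).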

How the data were processed

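The authors prepared polyadenylated RNA with a TruSeq kit, sequenced 65-base single-end reads, mapped them with CASAVA (version not given in the sources used here) to mm9 and took read counts over RefSeq exons, added up per gene. The deposited signal is a normalized read count per gene, which the authors brought to a common trimmed mean over samples (5th percentiles at both ends left out) and did not divide by length. Use of strand was not stated.

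Columns were matched to samples by title. Below 3, a share of 88.6% to 94.2% of values fell on a multiple of the worth of 1 read (within 0.0051), but between 20 and 50 the share was 67.1% to 68.8%, so reads were not recovered for nearly all genes and no count model was run. Log2(value + 1) of the 7247 genes with a mean of at least 10 was fitted with limma 3.58.1 in R 4.3.3 (a mean for each group, all 12 mice, eBayes with a trend), with two-sided p-values and Benjamini-Hochberg adjustment over all genes tested. The fit was tested on simulated data. Genes were called at an adjusted p under 0.05. Members, gene lists and tests were chosen with earlier results of these data known. All members are named. From the other lists every called gene could be named, and otherwise the 3 with the highest mean, so BC016495, Naprt1 and the remaining sirtuins are named for their levels. Some genes that this rule covers are not reported here. Positions and lengths came from GENCODE for NCBIM37 (mm9), by symbol. Alternatives were pseudocounts of 0.1 and 5, no filter, median-of-ratios scaling, sample weights, a replicate block, the slow-fibre score as a covariate and leaving out each mouse.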

Additional observations from a re-analysis of the deposited data

How the results depend on the processing

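The number of genes called for activity in wild-type mice, 2 in the limma fit reported, was 1 with median-of-ratios scaling, 415 with sample weights and 28 with the slow-fibre score as a covariate. In myostatin-reduced mice it went from 568 to 931 with sample weights and to 187 with the score, and over both genotypes from 1051 to 1740 and 401. Without 1 mouse these counts were 0 to 198, 85 to 1098 and 552 to 1485, those for genotype 180 to 579 and for the interaction 0 to 1. Of the members, 3 were called in myostatin-reduced mice, 1 (Nnt) with the score as a covariate, and 0 to 3 without 1 mouse, with 0 in each of the fits without IM mouse 2, IM mouse 3 and AM mouse 2, which had 1494, 1600 and 1198 genes at an unadjusted p under 0.05. Itgb1bp3 lost its call there with no filter, scaling, the block or the score. In wild-type mice Nnt and Sirt3 were called with sample weights and Nnt without AW mouse 1. Over both genotypes Nnt and Sirt3 were called under all 19 alternatives, and Sirt5 with no filter. The members were chosen with these activity contrasts in view, so their calls are no independent support. For genotype 0 to 1 members were called without 1 mouse, the 1 being Nnt without AW mouse 1. The genotype change of Sirt2, 0.01, was -0.0256 with the score and -0.0357 to 0.0461 without 1 mouse, and that of Itgb1bp3, -0.04, was -0.153 to 0.0896, above 0 without IW mouse 3. With the replicate number as a block, the wild-type activity count was 0, with 1089 genes at an unadjusted p under 0.05. The numbers stand for different mice in each group, same-numbered mice of the compared groups had correlations of deviations from -0.53 to 0.48, and 15 of 36 best matches fell on the own number, so the block was not used as a pairing. For IM and AM mice, where the block ended the call of Itgb1bp3, the 3 correlations were 0.236, 0.171 and 0.322. The cause of these differences was not tested. Scaling moved the median change of all genes by at most 0.012.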

Other observations

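Clock genes were examined because Nampt is a textbook target of the clock. Of 14 tested clock genes, 1 was called higher and 6 lower with activity over both genotypes in limma, against 7.99% and 6.51% of genes, and the median change was -0.33 against -0.02 over all genes. Hlf changed by -0.55 (limma adjusted p = 0.00726), Bhlhe41 by -0.47 (0.0207), Per3 by -0.42 (0.0421), Tef by -0.34 (0.0208), Cry2 by -0.33 (0.0413) and Nr1d2 by -0.21 (0.0444). Nampt changed by 0.05 in the same contrast (SE 0.05). Cry2, a repressor of the clock, was also called for genotype, at 0.49 (limma adjusted p = 0.0137). The time of day of sampling was not given in the sources used here.

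Markers of other cell types of muscle tissue were followed as well. For fibroblast markers 0 of 6 were called in any contrast of the limma fit (3, all collagen genes and lower, at an unadjusted p under 0.05 for activity over both genotypes), and the summed list overlapped between all groups. Among adipocyte markers, Fabp4, which endothelial cells also express, was called for activity at 0.64 (limma adjusted p = 0.00331), and the other 2 tested were not. The adipocyte list summed to 143 to 194 in IW, 176 to 253 in AW, 124 to 147 in IM and 153 to 259.5 in AM mice. Leukocyte markers had 0 calls in limma among 2 tested genes, 1 of which (Lyz2) had an unadjusted p under 0.05 for activity in wild-type mice. Of the red cell markers, 1 (Alas2) was in the table, at 2.11 to 7.19 normalized reads. Their part in the values of Nampt, which leukocytes and adipocytes also express, was not tested.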
